A study of Mus musculus with 4 samples.

Results

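Fibroblast growth factor (FGF) genes of the embryonic mouse eye are described here, from the secreted ligands to the genes that answer the signal. They were taken by symbol from the tables of all 4 libraries: every listed FGF gene, the receptor genes Fgfr1 to Fgfr4 and Fgfrl1, the co-receptor genes Kl and Klb, the adaptors Frs2 and Frs3, the Flrt, Spry and Spred families, Dusp6, Il17rd and the ETS factor genes Etv1, Etv4 and Etv5. This gave 46 genes of the 18702 listed. The libraries were made from total RNA of whole eye tissue of C57BL/6 embryos, 2 of wild-type genotype and 2 whose label gives both Anp32b alleles as null, called the knockout below. The sources used here give neither the stage and sex nor how many embryos a library pooled, nor how the allele was made. Since no label ties a library to an embryo of its own, each p-value measures the spread between these libraries alone, which may be technical.

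Secreted FGFs bind receptor tyrosine kinases together with heparan sulphate, or with a klotho co-receptor in the case of the hormone-like members. The receptor phosphorylates the docking protein FRS2 and starts the RAS-ERK cascade. ERK then switches on genes for ETS transcription factors and for inhibitors of the cascade itself, such as the Sprouty, SPRED and DUSP proteins, whose transcripts are widely used as readouts of FGF activity. In the eye, FGFs are best known for setting the neural retina apart from the pigment epithelium, for driving lens cells to become fibres, and for the outgrowth of the lacrimal gland from the conjunctiva.

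Levels are FPKM (fragments per kilobase of a transcript, scaled by the fragment total of the library), a unit per transcript length in which genes can be set side by side. Fold changes are differences of log2(FPKM + 1), knockout minus wild type, which understate the change of genes at low levels. A gene was tested if its mean over the 4 libraries was at least 1 FPKM, and was called higher or lower where the limma adjusted p, over all 13887 genes tested, was under 0.05. The steps between low values place the depth at 17800000 to 18020000 fragments per library, so that 1 fragment on a transcript of 1 kb is worth 0.055 or 0.056 FPKM. Anp32b, the targeted gene, had 163.18 and 179.12 FPKM in the wild type and 94.53 and 92.67 FPKM in the knockout, a log2 fold change of −0.86 (SE 0.05, limma adjusted p = 1.11e-05). The knockout libraries thus kept 54.7% of the wild-type level. Such a value does not by itself bear out that label, and these tables do not assign the remaining reads to exons.

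The tissues in the samples differed in their marker genes, and every FGF result below stands beside these values. Of all tested genes 33.5% were higher and 21.1% lower, and each count of called genes is set against these shares. All 16 lens crystallin genes were lower, with a summed level of 69500 and 69690 FPKM in the wild type and 6097 and 6145 FPKM in the knockout, and so were all 13 genes of lens fibres and lens regulators (median log2 fold change −2.51). Of 11 retinal progenitor genes 8 were lower and 1 was higher, the sum going from 1387 and 1402 to 950.7 and 960.7 FPKM. Ccnd1 alone gave 703.17 and 711.02 FPKM of that sum in the wild type and 378.74 and 374.31 FPKM in the knockout. The sum thus follows this gene in large part. All 12 genes of periocular mesenchyme were higher, with sums of 1576 and 1548 against 3434 and 3457 FPKM, and so were all 11 tested skeletal muscle genes of 12 (983.6 and 998.6 against 1977 and 1998 FPKM), and all 7 tested bone genes of 8 (21.19 and 20.09 against 170.0 and 171.7 FPKM). Of 12 surface epithelium genes 11 were higher and 1 was lower, with sums of 680.7 and 706.4 against 1326 and 1330 FPKM. The largest changes called within these lists were those of Crygf (−4.01) and Bfsp1 (−3.73) of the lens, Ccnd1 (−0.91) and Sfrp2 (1.13) of the progenitors, Twist1 (1.33) of mesenchyme, Tnnt3 (1.13) of muscle, Ibsp (4.69) of bone, and Krt17 (1.69) and Krt12 (−0.24) of surface epithelium. Of 10 tested photoreceptor genes 4 were higher (Opn1sw most, 0.77), a share near that of all tested genes, and 5 were lower (Pde6b, −1.17). Of 9 tested pigment cell genes 1 was higher (Ttr, 0.95) and 5 were lower (Rgr, −0.82). Of 7 tested erythroid genes 6 were higher (Hbb-y, 1.79), of 8 endothelial genes 6 were higher (Pecam1, 0.91) and 1 lower (Kdr, −0.37), and all 9 macrophage genes were higher (Tyrobp, 1.22). No gene of these lists was at 0 in all 4 libraries. Ibsp and Hbb-y had wild-type means of 0.95 and 0.46 FPKM and knockout means of 49.20 and 4.04 FPKM. They were tested through the knockout alone, which favours a call of higher in the bone and erythroid counts. Pde6b, with means of 2.21 FPKM in the wild type and 0.43 FPKM in the knockout, was tested through the wild type alone. Other genes of these lists were not checked for this. In whole tissue, fewer cells of a type cannot be told apart from less RNA per cell, and the part of tissue make-up in the FGF results was not tested.

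FGF genes changed in both directions. Of the 46 genes 33 reached the level tested. Among these 20 were higher in the knockout, where 33.5% of all tested genes were higher, and 10 were lower, where 21.1% of all tested genes were lower. The median log2 fold change was 0.22 for the 33 genes and 0.04 for all tested genes. In 20 of the 33 both knockout values lay above both wild-type values and in 11 below (45.6% and 32.4% of all tested genes). All 33 had a mean above 1 FPKM in each group, so none was tested through 1 group alone. With the deposited TPM values, which shift the median of all genes to 0.16, 21 of 35 tested members were higher and 6 lower, against 47.8% and 11.4% of all genes. Fgf23, counted among the 21, reached the level tested only through its knockout values. Without knockout replicate 1, 12 were higher and 10 lower. That FPKM fit leaves 1 knockout library, and the shares of all genes called in it were not worked out. FPKM was also rescaled in 2 ways. With library totals taken without crystallin and erythroid genes 16 members were higher and 11 lower (25.4% and 31.2% of all genes), and by median of ratios 17 were higher and 11 lower (28.3% and 26.5%). Called higher under all 4 scalings were 16 members, and 6 were called lower under all 4. The matching shares of all genes were not worked out, so these counts do not show whether the members stand out. With a log2 fold change of at least 0.5 required as well, 11 members were higher and 4 lower, against 11.7% and 3.94% of all tested genes.

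Among the 18 secreted ligands the 3 most abundant fell and the next 5 rose. Fgf15, Fgf3 and Fgf9 were lower, and Fgf7, Fgf2, Fgf10, Fgf18 and Fgf1 were higher, while the other 10 did not reach the level tested. Fgf15 (chromosome 7, positions 144896531 to 144900953 of GRCm38, plus strand), the mouse counterpart of human FGF19 and a product of retinal progenitors, outweighed the rest. It made up 85.7% and 84.0% of the summed FPKM of the secreted ligands in the wild type, and 75.7% and 75.8% in the knockout. Its levels were 171.58 and 166.80 FPKM in the wild type and 108.79 and 108.28 FPKM in the knockout, so that the knockout kept 64.1% of the wild-type mean (log2 fold change −0.64, SE 0.03, adjusted p = 6.06e-06). The groups were far apart compared with the difference between libraries of a group. The retinal progenitor list, in which Fgf15 was not placed, was lower in the same libraries by a median of −0.40. Exons of the antisense genes Gm26793 and Gm39119 overlap Fgf15, and whether counting used strand is not stated in the sources used here. For the same reason the values of Fgf10, Fgf14, Fgfr1, Fgfr3, Frs3 and Spry1, whose exons also overlap antisense or unclassified transcripts on the other strand, carry that uncertainty.

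Fgf9, a ligand of the early optic vesicle and retina, was the next most abundant. Its wild-type levels were 10.98 and 12.48 FPKM and its knockout levels 8.92 and 9.00 FPKM in the knockout (−0.35, SE 0.06, adjusted p = 0.00332). Fgf3, best known from the inner ear and in a row with Fgf4 and Fgf15 on chromosome 7, went from 7.59 and 6.77 FPKM to 4.58 and 4.57 FPKM (−0.55, SE 0.07, adjusted p = 0.000533). Both knockout libraries were below both wild-type libraries for each of these genes, as in 32.4% of all tested genes. The falls of Fgf15, Fgf9 and Fgf3 were called under every scaling and without any single library.

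Fgf7 and Fgf10 are ligands that mesenchyme makes and that act on neighbouring epithelium through a splice form of FGFR2, FGF10 being the inducer of the lacrimal gland bud. Fgf7 was at 1.85 and 2.36 FPKM in the wild type and at 4.77 and 4.81 FPKM in the knockout, 2.28-fold the wild-type mean (0.90, SE 0.09, adjusted p = 0.000233). Fgf10 was at 1.77 and 2.05 FPKM and at 4.08 and 4.11 FPKM, 2.14-fold (0.81, SE 0.08, adjusted p = 0.000193). The knockout libraries of both genes were almost equal and lay well above the wild type. The genes of periocular mesenchyme were higher in the same libraries, by a median of 1.13. The ratio of Fgf10 to Fgf9 moved from 0.161 and 0.164 to 0.457 in each knockout library.

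Fgf2 and Fgf1 belong to the group of ligands that lack a classical signal peptide, and FGF2 is a standard inducer of fibre differentiation in lens explants. Fgf2 rose from 1.57 and 1.58 FPKM to 3.51 and 3.66 FPKM, 2.28-fold (0.83, SE 0.08, adjusted p = 0.000128). The protein-coding gene Nudt6 overlaps Fgf2 exons on the opposite strand. Its levels, 2.29 and 3.27 FPKM in the wild type and 4.40 and 3.78 FPKM in the knockout, were higher too (0.44, adjusted p = 0.0257). Reads in the stretch that Nudt6 and Fgf2 share cannot be told apart without strand. Fgf1 was at 1.93 and 1.91 FPKM and at 2.51 and 2.55 FPKM (0.27, SE 0.08, adjusted p = 0.0211). Its call was lost without any of the 4 libraries in turn, while its log2 fold change stayed between 0.27 and 0.28. Each omission leaves 1 library in a group and so weakens the test. Fgf18, known for its role in bone and cartilage growth, was at 1.78 and 2.63 FPKM and at 3.92 and 3.95 FPKM (0.64, SE 0.13, adjusted p = 0.00465). The wild-type libraries of Fgf18 differed by more, relative to their level, than those of the other 7 tested ligands. Its call was lost when knockout replicate 1 (0.64) or knockout replicate 2 (0.63) was omitted. Over the 4 omissions its log2 fold change ran from 0.44 to 0.83. The bone genes, among them Ibsp tested through the knockout alone, were higher by a median of 2.05 in the same libraries.

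The 10 ligands below the level tested were Fgf4, Fgf5, Fgf6, Fgf8, Fgf16, Fgf17, Fgf20, Fgf21, Fgf22 and Fgf23, none above 0.82 FPKM in any library. Fgf8, a ligand of the early optic vesicle and optic stalk, was at 0.33 and 0.57 FPKM in the wild type and at 0.14 and 0.11 FPKM in the knockout. Fgf16 was at 0.16 FPKM in each wild-type library and at 0.37 and 0.42 FPKM in the knockout, and Fgf20 at 0.04 FPKM in each wild-type library and at 0.18 and 0.15 FPKM in the knockout. At the depth of these libraries such values rest on few fragments. Exons of the protein-coding genes Micu3 and Rnf126 overlap Fgf20 and Fgf22, in that order, on the opposite strand. Since the use of strand is not stated, the values of Fgf20 and Fgf22 carry that uncertainty too. When genes were fitted without a filter on low values, the fall of Fgf8 (−0.36, adjusted p = 0.0395) and the rises of Fgf16 (0.27, adjusted p = 0.0115) and Fgf20 (0.16, adjusted p = 0.0293) were called. With TPM Fgf23 was called higher (0.68, limma adjusted p = 0.0247), on 0.25 FPKM in each wild-type library and 0.82 and 0.45 FPKM in the knockout. Its TPM was 0.53 in each wild-type library and 1.93 and 1.06 in the knockout. Fgf23 thus reached the level tested only through the knockout, where it is high, and such a filter favours a call of higher. Fgf21, a hormone of liver, was listed at 0 in 1 library of each group.

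**Figure D1:**
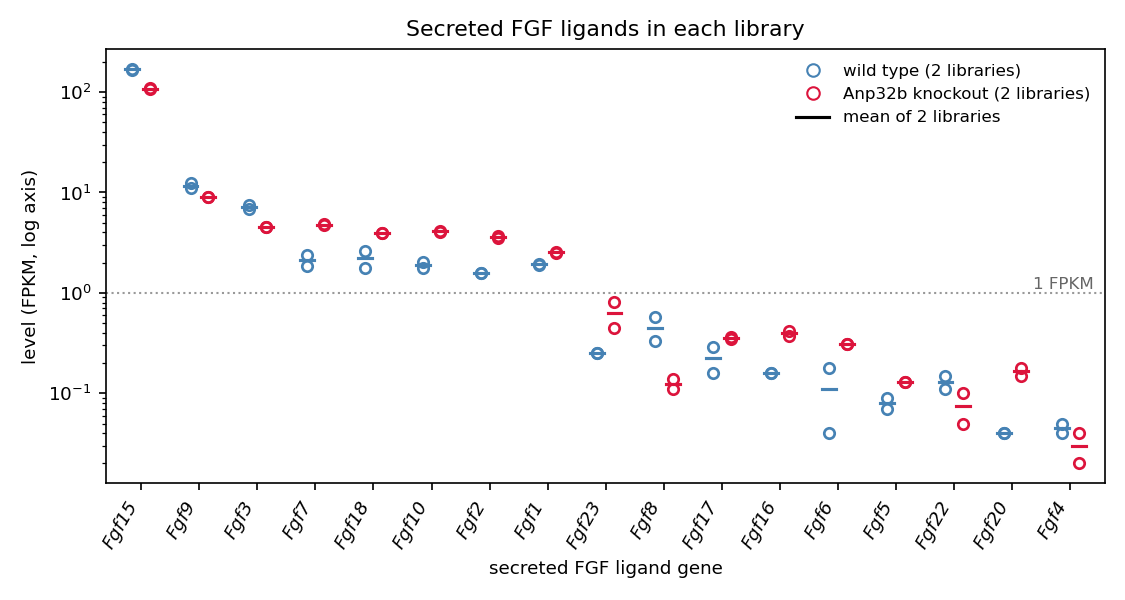
Levels of 17 secreted ligand genes in FPKM on a log axis, ordered by their summed group means, with a circle for each library and a line for each group mean; Fgf21, listed at 0 in 1 library of each group, is not drawn. Fgf15, Fgf9 and Fgf3 sit lower in the knockout, Fgf7, Fgf18, Fgf10, Fgf2 and Fgf1 sit higher, and the genes right of Fgf1 lie under the dotted line at 1 FPKM.

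The order of the ligands changed below the top places. In the wild type it ran Fgf15, Fgf9, Fgf3 (means of 169.19, 11.73 and 7.18 FPKM), followed by Fgf18, Fgf7, Fgf1 and Fgf10 between 2.21 and 1.91 FPKM, whose library values overlapped from each to the next, and Fgf2 at 1.58 FPKM. In the knockout Fgf15 (108.53 FPKM) and Fgf9 (8.96 FPKM) kept their places, Fgf7 (4.79 FPKM) came above Fgf3 (4.58 FPKM), and Fgf10, Fgf18, Fgf2 and Fgf1 followed from 4.10 to 2.53 FPKM without overlap between neighbours. The summed level of all secreted ligands was 200.2 and 198.5 FPKM in the wild type and 143.7 and 142.9 FPKM in the knockout. Without Fgf15 it was 28.7 and 31.7 FPKM in the wild type and 34.9 and 34.6 FPKM in the knockout.

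Of the 4 intracellular FGF-like genes, whose products are not secreted and bind voltage-gated sodium channels of neurons, 3 fell and 1 rose. Fgf12 went from 5.23 and 5.05 FPKM to 3.08 and 3.34 FPKM (−0.54, adjusted p = 0.000573). Fgf14 went from 3.89 and 4.13 FPKM to 2.70 and 2.50 FPKM (−0.48, adjusted p = 0.00154). Fgf13 went from 15.95 and 15.21 FPKM to 12.85 and 13.16 FPKM (−0.24, adjusted p = 0.00333), a call lost with TPM (−0.13, adjusted p = 0.0505). Fgf11 moved the other way, from 10.28 and 10.64 FPKM to 17.58 and 16.90 FPKM (0.67, SE 0.05, adjusted p = 3.24e-05), and became the most abundant of the group. In every one of these genes the groups did not overlap. Of all tested genes, 45.6% had both knockout values above both wild-type values and 32.4% had both below. Of 12 retinal ganglion cell genes 10 were lower (Sncg most, −1.03) and 2 higher (Ebf1 most, 0.23) in the same libraries, against 21.1% and 33.5% of all tested genes. Their sum went from 559.1 and 566.4 to 406.6 and 412.2 FPKM.

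Receptors went both ways. Fgfr1, Fgfr2 and Fgfr4 rose, and Fgfr3 and the kinase-less Fgfrl1 fell. Fgfr1 (chromosome 8, positions 25513654 to 25575718, plus strand), the most abundant of the 5 in both groups, had levels of 25.32 and 23.38 FPKM in the wild type and of 41.26 and 42.31 FPKM in the knockout, 1.72-fold (0.76, SE 0.04, adjusted p = 1.83e-05). Fgfr2, whose epithelial splice form receives FGF7 and FGF10, was at 12.57 and 12.04 FPKM and at 20.01 and 20.16 FPKM, 1.63-fold (0.66, SE 0.04, adjusted p = 2.41e-05). Both genes had tight replicates and no overlap between groups. Of all tested genes, 45.6% had both knockout values above both wild-type values. The tables give 1 value a gene and do not separate splice forms. An annotated transcript of Ctbp2 shares exon sequence with Fgfr2 on the same strand. Ctbp2 itself did not pass the test (46.17 and 44.39 against 42.98 and 45.42 FPKM, adjusted p = 0.493).

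Fgfr4, a receptor known from muscle progenitors and liver, rose from 4.25 and 3.86 FPKM to 7.01 and 7.52 FPKM, 1.79-fold (0.71, SE 0.07, adjusted p = 0.000168), and the median rise of the skeletal muscle list in the same libraries was 0.90. Fgfr3 (chromosome 5, positions 33721674 to 33737068, plus strand), a receptor of the lens as well as of cartilage and neural tissue, fell from 14.24 and 15.12 FPKM to 9.00 and 8.84 FPKM, 60.8% of the wild-type mean (−0.66, SE 0.05, adjusted p = 4.88e-05). It was the only signalling receptor to fall. In the same libraries the median log2 fold change was −3.51 for the crystallins, −0.40 for retinal progenitor genes and −0.48 for retinal ganglion genes. For the bone genes, among them Ibsp tested through the knockout alone, it was 2.05, the other way. Which of these tissues bears on the Fgfr3 value was not tested. Fgfrl1, which binds ligand without a kinase domain, went from 23.22 and 22.88 FPKM to 19.99 and 20.49 FPKM (−0.18, SE 0.04, adjusted p = 0.00558). That call was lost with TPM (−0.06, adjusted p = 0.204), whereas those of the other 4 receptors held under every scaling and without any single library.

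The balance of the 4 signalling receptors can be read within each library, where scaling cancels. Fgfr1 took 44.9% and 43.0% of their summed FPKM in the wild type and 53.4% and 53.7% in the knockout. Fgfr3 took 25.3% and 27.8% and then 11.6% and 11.2%. Fgfr2 went from 22.3% and 22.1% to 25.9% and 25.6%, and Fgfr4 from 7.54% and 7.10% to 9.07% and 9.54%. The ratio of Fgfr1 to Fgfr3 was 1.78 and 1.55 in the wild type and 4.58 and 4.79 in the knockout, while that of Fgfr1 to Fgfr2 stayed between 1.94 and 2.10 over the 4 libraries. With 2 libraries a group, a two-sided exact permutation test of a single ratio cannot go below p = 0.333, and none was run. In the order of levels Fgfr3 stood above Fgfr2 in the wild type and below it in the knockout, and in the knockout Fgfrl1 and Fgfr2 overlapped.

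**Figure D2:**
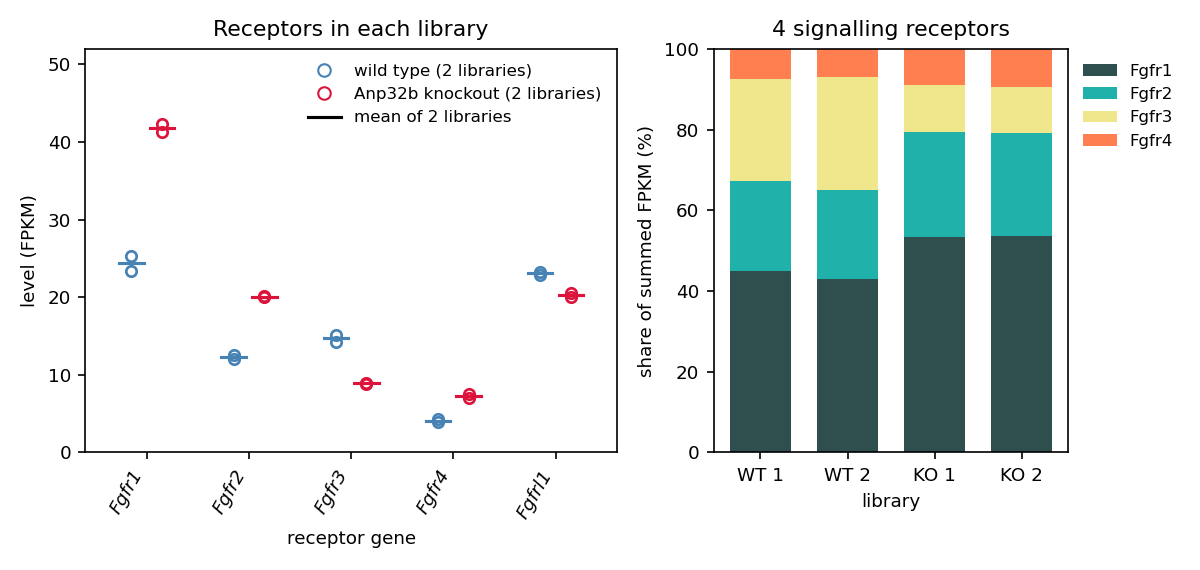
Left, FPKM of the 5 receptor genes, a circle for each library and a line for each group mean; right, the share in percent of each of the 4 signalling receptors in their summed FPKM, by library. Fgfr1, Fgfr2 and Fgfr4 are higher in the knockout, Fgfr3 and Fgfrl1 are lower, and the share of Fgfr3 goes from 25.3% and 27.8% to 11.6% and 11.2%.

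The klotho co-receptors, which hormone-like FGFs need, were at low levels. Kl did not exceed 0.27 FPKM and Klb 0.35 FPKM in any library, and neither was tested. Of the docking proteins that link receptor to RAS, Frs2 was at 11.58 and 11.31 FPKM in the wild type and 12.85 and 12.43 FPKM in the knockout (0.13, SE 0.04, adjusted p = 0.0418). This call was lost with both rescalings of FPKM (adjusted p = 0.355 without crystallin and erythroid genes, 0.13 by median of ratios) and without a filter (adjusted p = 0.0568). It was also lost without any of the libraries in turn, where the log2 fold change of Frs2 ran from 0.11 to 0.15. Frs3 had 6.43 and 6.36 FPKM and then 5.82 and 5.55 FPKM and did not pass the test (−0.15, adjusted p = 0.0659). It was called lower with both rescalings (adjusted p = 0.0178 and 0.0277).

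All 3 FLRT genes, for membrane proteins with leucine-rich repeats that bind FGF receptors and also guide and attach cells, were higher. Flrt3 changed most, from 5.17 and 5.11 FPKM to 9.07 and 9.68 FPKM, 1.82-fold (0.76, SE 0.06, adjusted p = 5.19e-05). Flrt2 went from 9.83 and 9.71 FPKM to 12.25 and 12.75 FPKM (0.33, adjusted p = 0.00105) and Flrt1 from 2.25 and 2.42 FPKM to 3.08 and 3.01 FPKM (0.28, adjusted p = 0.018). The groups were separate for each of them, with both knockout values above, as in 45.6% of all tested genes. Flrt1 lost its call, not the direction, without wild-type replicate 1 (0.24), knockout replicate 1 (0.27) or knockout replicate 2 (0.29).

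Feedback inhibitors rose or did not pass the test, and none was called lower. Of 9 genes 8 were tested and 6 were higher, where 33.5% of all tested genes were, with a median log2 fold change of 0.21. Under each rescaling of FPKM 4 of the 8 were higher, where 25.4% and 28.3% of all genes were. Spry1, a Sprouty gene that ERK activity induces, rose from 13.45 and 14.97 FPKM to 22.51 and 23.40 FPKM, 1.62-fold (0.66, SE 0.06, adjusted p = 9.1e-05). Spry4 rose from 3.94 and 3.85 FPKM to 5.97 and 6.00 FPKM, 1.54-fold (0.51, SE 0.06, adjusted p = 0.0004). Spry2, their close relative, did not pass the test. It was at 23.25 and 24.40 FPKM in the wild type and 23.47 and 23.59 FPKM in the knockout, with knockout values inside the wild-type range (−0.02, SE 0.04, adjusted p = 0.737). Within a library Spry1 was 0.578 and 0.614 of Spry2 in the wild type, against 0.959 and 0.992 in the knockout. Spry3 stayed at or below 1.22 FPKM and was not tested.

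Among the SPRED genes, whose products bring neurofibromin to the membrane to switch RAS off, Spred2 changed most. It went from 11.72 and 12.10 FPKM to 15.76 and 15.97 FPKM (0.39, SE 0.04, adjusted p = 0.000312). Spred1 stood at 24.81 and 25.38 FPKM and at 28.07 and 27.32 FPKM (0.14, adjusted p = 0.0157), and Spred3 at 8.10 and 8.08 FPKM and at 7.45 and 8.23 FPKM (−0.04, adjusted p = 0.587). Il17rd, also called Sef, a membrane inhibitor of FGF receptor signalling, rose from 4.17 and 4.47 FPKM to 5.75 and 5.26 FPKM (0.29, SE 0.07, adjusted p = 0.0109). Its call, not the size of the difference, was lost without wild-type replicate 1 (0.25, adjusted p = 0.0645) or knockout replicate 1 (0.24, adjusted p = 0.0809). Exons of Ggn overlap Spred3 on the opposite strand.

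Dusp6, the phosphatase that takes phosphate off ERK and a standard readout of FGF signalling, rose slightly. Its values were 26.55 and 25.47 FPKM in wild-type and 28.32 and 28.17 FPKM in knockout libraries, 1.09-fold (0.11, SE 0.04, adjusted p = 0.0332). The calls of Dusp6 and Spred1 were lost when libraries were scaled without crystallin and erythroid genes (Dusp6 0.04, adjusted p = 0.478, and Spred1 0.06, adjusted p = 0.231) and by median of ratios (0.07, adjusted p = 0.141, and 0.09, adjusted p = 0.0674). Dusp6 also lost its call without wild-type replicate 2 (0.09), knockout replicate 1 (0.11) or knockout replicate 2 (0.12). Spred1 lost it without wild-type replicate 1 (0.12), knockout replicate 1 (0.12) or knockout replicate 2 (0.16). The rises of Spry1, Spry4 and Spred2 were called in each of these settings.

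The ETS factors of the PEA3 group, which ERK signalling both induces and activates, changed little and not all in 1 direction. Etv5, the most abundant response gene in both groups, went from 38.79 and 39.33 FPKM to 34.94 and 35.06 FPKM, 89.6% of the wild-type mean (−0.15, SE 0.03, adjusted p = 0.00537). Etv4 went from 11.63 and 10.93 FPKM to 10.31 and 9.15 FPKM (−0.20, SE 0.07, adjusted p = 0.0386). Etv1 went from 6.47 and 6.81 FPKM to 8.10 and 7.72 FPKM (0.22, SE 0.06, adjusted p = 0.0139). With TPM neither Etv5 (−0.04, adjusted p = 0.374) nor Etv4 (−0.09, adjusted p = 0.32) was called, and Etv1 was not called when crystallin and erythroid genes were left out of the totals (0.15, adjusted p = 0.0598). Etv4 also missed the threshold without a filter (adjusted p = 0.0945) and without wild-type replicate 1, wild-type replicate 2 or knockout replicate 2 (adjusted p from 0.0775 to 0.212), and Etv1 without wild-type replicate 1 (adjusted p = 0.0716) or knockout replicate 1 (adjusted p = 0.0913). The ratio of Etv1 to Etv5, free of scaling, was 0.167 and 0.173 in the wild type and 0.232 and 0.220 in the knockout.

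**Figure D3:**
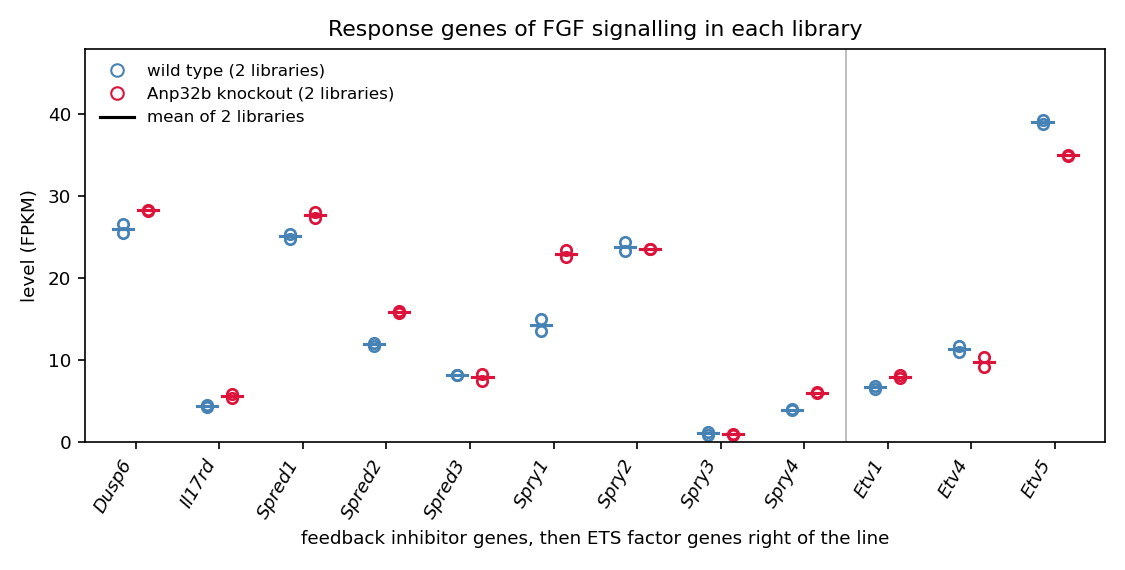
FPKM of the 9 feedback inhibitor genes and, right of the line, the 3 ETS factor genes, a circle for each library and a line for each group mean. Spry1, Spry4 and Spred2 are clearly higher in the knockout, Spry2 and Spred3 overlap between groups, and Dusp6, Spred1 and the ETS factor genes differ by small amounts.

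**Figure D4:**
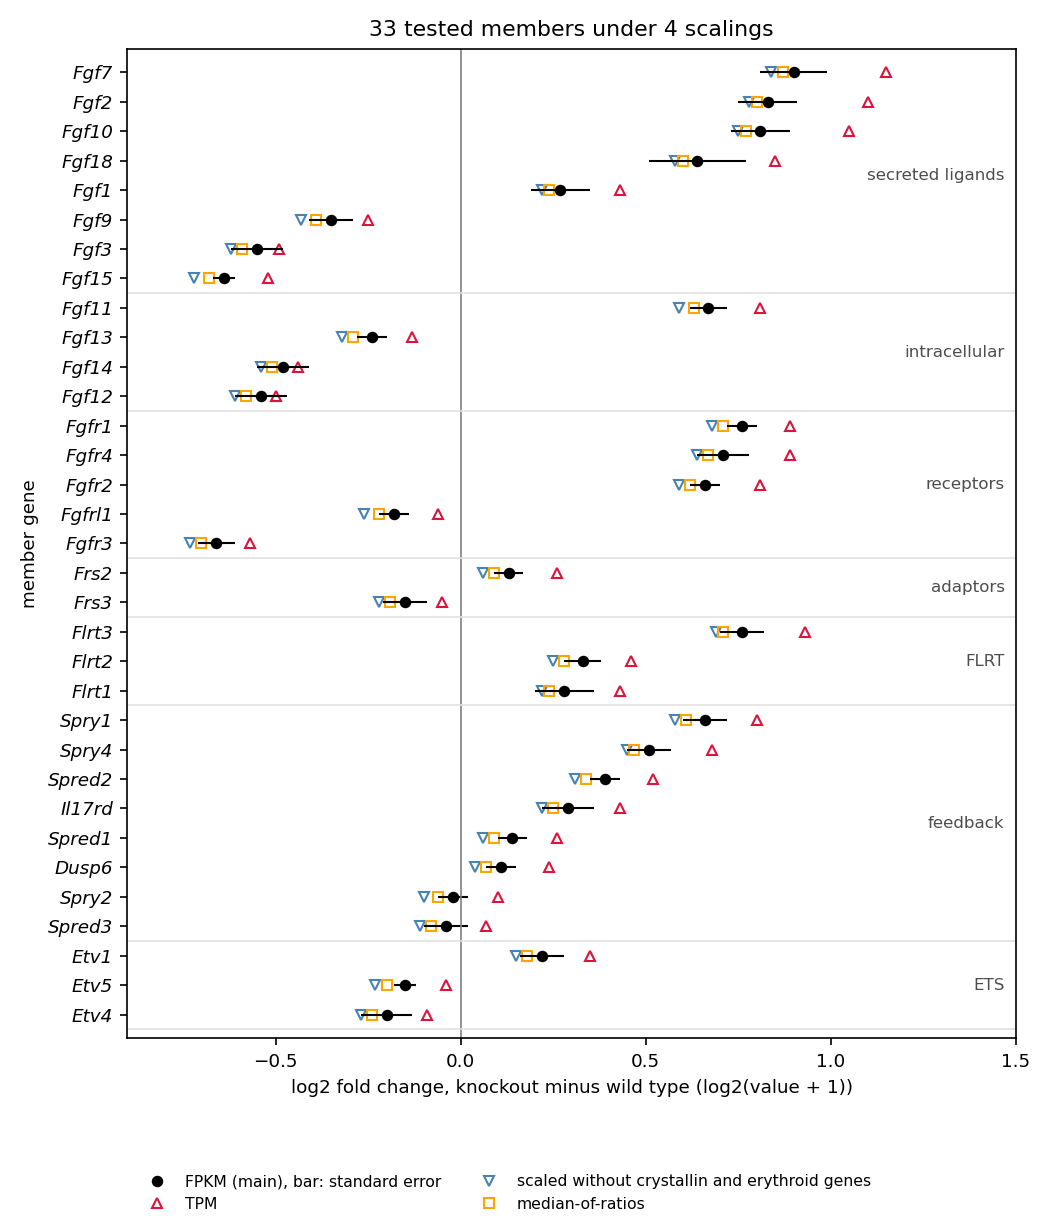
Log2 fold change (knockout minus wild type) of the 33 tested genes, by role, with the standard error of the FPKM fit as a bar and the values under TPM and both rescalings of FPKM as open marks. TPM places every gene to the right of its FPKM value and both rescalings place it to the left; Spry2 and Spred3 change sign with TPM (0.10 and 0.07).

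The genes around the pathway were read from lists of textbook members. Of 29 genes for heparan sulphate synthesis, its core proteins and FGF carriers 26 were tested, 20 were higher and 1 was lower, against 33.5% and 21.1% of all tested genes, with a median of 0.23. With totals taken without crystallin and erythroid genes 16 were higher and 3 lower (25.4% and 31.2% of all genes). By median of ratios 19 were higher and 3 lower (28.3% and 26.5% of all genes). Fgfbp1, a carrier that frees FGFs from the matrix, rose most, from 4.14 ± 0.41 to 10.97 ± 0.71 FPKM (SD, n = 2; 1.22, limma adjusted p = 2.25e-05), and Fgfbp3, of the same family, was the gene that fell (−0.27, limma adjusted p = 0.00724). Sulf1, which removes sulphate groups from heparan sulphate, rose by 0.84, the syndecan gene Sdc1 by 0.76 and the glypican gene Gpc3 by 0.68. Of 21 genes of the RAS-ERK relay 8 were higher, a share close to the 33.5% of all tested genes, and 2 lower, with a median of 0.05. This split moved with scaling. With TPM 15 were higher and 1 lower, where 47.8% and 11.4% of all genes were. With totals taken without crystallin and erythroid genes 5 went each way (median −0.02), where 25.4% of all genes were higher and 31.2% lower. The median of all genes moved as well, to 0.16 with TPM and −0.04 with those totals. Map2k1, an ERK kinase, rose by 0.39, and Braf fell by 0.29.

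Of 11 further genes that ERK activity induces, 10 were tested, 8 were higher and none was lower, against 33.5% and 21.1% of all tested genes, with a median of 0.49. Fos, an immediate-early gene, rose from 6.92 ± 0.25 to 16.74 ± 0.09 FPKM (1.16, limma adjusted p = 4.17e-06), Maff by 0.74, Myc by 0.66 and Errfi1 by 0.58. Dusp4 (0.02) and Dusp5 (−0.01), for phosphatases related to DUSP6, did not pass the test (adjusted p = 0.859 and 0.957). Many stimuli besides FGF induce these genes.

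Upstream sequence was searched for ETS sites, since ETS factors are members and act on response genes. RefSeq windows of GRCm38.p6 were matched by symbol for 35 of the 46 genes, and the 250 bases before each start were read for CCGGAAG and CAGGAAG on both strands. Either motif was found for 5 of the 35 genes, Fgf12, Fgfr2, Fgfrl1, Frs2 and Kl (14.3%), and for 19.0% of all 27025 genes with a window. The upstream windows found for Spry1, Spry2, Spred1, Spred2, Spred3, Dusp6, Il17rd, Etv1 and Etv5 did not hold these letters, which says nothing of sites elsewhere. The pieces below, of 100 bases each, are shown because they carry a motif before receptor genes that changed in opposite directions and before the only intracellular member with one; capitals mark the motif, read 5′ to 3′ on the strand of the gene.
Fgfr2, chr7:130266959-130267058, minus strand: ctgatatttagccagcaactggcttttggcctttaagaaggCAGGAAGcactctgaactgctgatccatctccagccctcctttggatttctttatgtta
Fgfrl1, chr5:108694129-108694228, plus strand: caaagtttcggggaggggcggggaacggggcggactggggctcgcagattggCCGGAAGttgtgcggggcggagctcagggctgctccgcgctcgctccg
Fgf12, chr16:28565014-28565113, minus strand: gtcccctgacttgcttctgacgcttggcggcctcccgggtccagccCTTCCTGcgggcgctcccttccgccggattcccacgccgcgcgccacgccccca
In Fgf12 the capitals are CAGGAAG on the other strand, 116 bases before 1 of its 4 annotated starts. Fgfr2 rose (0.66) with a motif that begins 209 bases before the RefSeq start of its window. Fgfrl1 fell (−0.18) with one that begins 48 bases before the RefSeq start of its own. Both starts lie inside the annotated genes, since Fgfrl1 begins at position 108692382 and Fgfr2, on the minus strand, at 133123350. Sequence before those outer ends was not read.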

How the data were processed

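RNA sequencing of 4 eye libraries, 2 wild type and 2 knockout, grouped by the labels, was analysed from the authors' tables. The authors deposited FPKM values per library, per the file headers, and TPM values, which the deposited tables give as the same values scaled to an equal sum. Tools named in the submitters' processing notes are HISAT2, TopHat, Cufflinks and DESeq, with the builds GRCm38 and GRCh38. Their roles, the annotation and the use of strand are not stated there. FPKM depends on the total of all fragments, so that a fall of crystallin transcripts raises other values.

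Depth was estimated from steps of low FPKM values of single-transcript genes, with 229 to 257 values per library. Of these, 56.8% to 65.5% lay within 0.15 of a whole fragment, where evenly spread values at a fixed depth would give 30.0%. The depth was itself chosen for its fit to whole fragments, so 30.0% is not the chance level of that search. The share within 0.15 was too low for a count test, so limma-trend, the stated replacement, was used. Against counting noise at that depth, replicates had a mean chi-square per gene of 1.86 (wild type) and 1.83 (knockout), with medians of 0.603 and 0.526. Counting noise alone would give a mean of about 1, so the replicates differed by more than that on average. They were kept as 2 samples, and their spread may still be technical. Limma 3.58.1 (R 4.3.3) was fitted to log2(FPKM + 1) for genes whose mean reached 1 FPKM, with genotype as the only term and two-sided Benjamini-Hochberg adjustment over all genes tested. The code was tested on simulated data. Python 3.11.15 with pandas 2.3.3 made the summaries, and gene positions are from GENCODE M21. All 46 members are accounted for, those tested with their values by role, and from each marker or pathway list the counts, the median and the largest called changes were to be named; further list genes were picked with their values in view. Alternatives were a pseudocount of 0.1, no filter, at least 5 FPKM in 2 libraries, TPM, 2 rescalings, a replicate block, a log2 fold change of at least 0.5 and omission of each library. An omission leaves 1 library in its group, so a call can be lost there through the weaker test at a similar fold change. The members and lists were chosen with earlier results of these data known.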

Additional observations from a re-analysis of the deposited data

How the results depend on the processing

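Counts of FGF genes called were 20 higher and 10 lower. With TPM 6 were lower, and with a log2 fold change of at least 0.5 as well as the adjusted p 11 were higher and 4 lower. Omitting each library in turn gave 12 to 17 higher and 9 to 10 lower. No shares of all genes were worked out for these omissions, each of which leaves 1 library in its group. The counts stayed within 1.5 times under a pseudocount of 0.1, no filter, at least 5 FPKM in 2 libraries, both rescalings and the replicate block. Spry2 and Spred3, not called, changed sign with TPM (0.10 and 0.07); over the omissions Spry2 ran from −0.05 to 0.02 and Spred3 from −0.11 to 0.02. The cause was not tested. Counts of the pathway lists and feedback inhibitors under the scalings were added after seeing the data. Anp32b was called lower under all alternatives run (−0.94 to −0.75). The libraries share only a number across groups: the deviations of same-numbered libraries had a correlation of 0.0439 over genes, and the fit with the replicate block called 20 higher and 10 lower. DESeq2 was not run, since no counts were recovered. With 2 libraries a group and an estimated 17800000 to 18020000 fragments each, changes in genes under 1 FPKM rest on few fragments.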

Other observations

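The genes Fgf3, Fgf4 and Fgf15 lie in a row within 62.9 kb of chromosome 7, and their neighbours were listed within 200 kb on either side (protein-coding genes of GENCODE M21). Ccnd1, the cyclin D1 gene of retinal progenitors, lies at positions 144929931 to 144939925, with LTO1 between it and Fgf15, and had the largest fall of the 5 genes tested there, from 703.17 and 711.02 FPKM to 378.74 and 374.31 FPKM (log2 fold change −0.91, limma adjusted p = 1.6e-06). Fgf15 (−0.64), Fgf3 (−0.55) and the chloride channel gene Ano1 (−0.37, from 15.72 and 16.30 FPKM to 12.31 and 12.10 FPKM) fell with it, Fgf4 was near 0 throughout, and LTO1, which overlaps the end of Ccnd1, did not pass the test (16.03 and 15.68 FPKM against 14.61 and 16.05 FPKM, adjusted p = 0.481).

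The paralogous stretch of chromosome 6 holds Fgf6 and Fgf23 within 65.8 kb, with the cyclin D2 gene beside them. There Ccnd2 rose from 25.27 and 26.59 FPKM to 49.24 and 49.82 FPKM (0.91, limma adjusted p = 4e-06). Fgf6 was at 0.04 and 0.18 FPKM in the wild type and 0.31 FPKM in each knockout library, and Fgf23, a hormone made in bone, at 0.25 FPKM in each wild-type library and 0.82 and 0.45 FPKM in the knockout. On the other side of Fgf6, Rad51ap1, a DNA repair gene, fell from 19.41 and 19.09 FPKM to 12.71 and 12.60 FPKM (−0.57, limma adjusted p = 3.68e-05). Tigar (adjusted p = 0.71), Ndufa9 (adjusted p = 0.745) and D6Wsu163e (adjusted p = 0.853) did not pass the test, and Akap3 and Dyrk4 were near 0. These neighbours were looked at after the FGF values had been seen.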
